A study of Mus musculus with 12 samples.

Results

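The genes described here encode 10 metabolic nuclear receptors, the receptors for bile acids, oxysterols, drugs, fatty acids, thyroid hormone and estrogen together with their partners. They were Nr1h4, Nr1h3, Nr1i2, Nr1i3, Ppara, Ppard, Nr0b2, Rxra, Thrb and Esr1, picked by gene symbol out of 55450 genes, and each symbol matched 1 identifier. Primary hepatocytes of mice were profiled by RNA-Seq in 12 libraries, with 3 libraries in each group. KO hepatocytes had lost Cebpa through Cre driven by the albumin promoter, which is active in hepatocytes, and WT hepatocytes carried the floxed Cebpa alleles. OE hepatocytes were given Ad-m-Cebpa, an adenovirus that expresses mouse Cebpa, and GFP hepatocytes were given Ad-GFP. The labels call the libraries biological replicates without giving the mice, their age, the cultures or the time after virus, so p values measure only the spread between these libraries. The study used male mice.

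Nuclear receptors are transcription factors that bind small lipophilic molecules and pass their level on to gene expression. Most receptors in this set bind DNA as a heterodimer with RXR, at paired copies of the core sequence AGGTCA. In the liver they control bile acid, cholesterol, fatty acid and drug metabolism, and CEBPA, a leucine zipper protein, is one of the factors that maintain hepatocyte gene expression.

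The promoters of 4 members are shown because these genes gave the lowest KO levels relative to WT (Nr1i3 and Nr1i2) or the OE decreases of a receptor and of its common partner (Nr1h4 and Rxra). Each run is the 250 bases before a RefSeq start in GRCm38.p6, 5′ to 3′ on the strand of the gene, and capitals mark AGGTCA or its complement.
Nr1i3, chr1:171213720-171213969, plus strand: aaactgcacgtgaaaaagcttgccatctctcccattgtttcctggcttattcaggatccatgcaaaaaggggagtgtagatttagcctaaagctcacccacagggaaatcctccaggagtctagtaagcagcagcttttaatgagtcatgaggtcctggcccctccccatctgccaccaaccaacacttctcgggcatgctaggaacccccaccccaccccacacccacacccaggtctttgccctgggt
Nr1i2, chr16:38294825-38295074, minus strand: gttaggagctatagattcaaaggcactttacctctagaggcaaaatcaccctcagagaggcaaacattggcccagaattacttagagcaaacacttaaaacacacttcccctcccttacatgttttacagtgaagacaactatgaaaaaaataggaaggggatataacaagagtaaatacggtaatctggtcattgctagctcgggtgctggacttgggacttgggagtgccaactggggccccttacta
Nr1h4, chr10:89506659-89506908, minus strand: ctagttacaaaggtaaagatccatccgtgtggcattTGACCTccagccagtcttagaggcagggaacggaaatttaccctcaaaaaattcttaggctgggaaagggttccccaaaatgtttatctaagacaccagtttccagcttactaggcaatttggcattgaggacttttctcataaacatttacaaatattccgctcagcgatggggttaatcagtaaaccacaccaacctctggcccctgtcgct
Rxra promoter 2, chr2:27709042-27709291, plus strand: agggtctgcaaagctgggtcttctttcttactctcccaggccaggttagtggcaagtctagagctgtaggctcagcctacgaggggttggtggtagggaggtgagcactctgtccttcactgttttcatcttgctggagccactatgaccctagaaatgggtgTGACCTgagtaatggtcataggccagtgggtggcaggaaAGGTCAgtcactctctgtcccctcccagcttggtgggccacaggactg
Rxra promoter 2 held AGGTCA on either strand, at positions -87 and -48 from the start, and the Nr1h4 promoter held it at -214. Neither the Nr1i3 nor the Nr1i2 run contained it, nor did Rxra promoter 1, which is not shown. Over windows of 300 bases, which also take in the first 50 transcribed bases, AGGTCA on either strand was in 3 of 14 member promoters (those 2 and a Thrb promoter) and in 16.3% of 32851 RefSeq promoters. TTGCNNAA, a pattern of C/EBP sites searched on both strands, was in 1 of the 14, an Esr1 promoter, and in 10.8% of all. No member promoter held both patterns, and a match is a description of these letters only.

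Total counts ranged from 20368564 to 23304230 in KO, 20966339 to 23261800 in WT, 20160081 to 23193817 in OE and 20467466 to 22132226 in GFP. Levels below are counts per 1000000 after scaling between libraries (CPM) unless transcripts per 1000000 (TPM, scaled for gene length) are named. Cebpa was at 0.164 to 0.963 CPM in KO against 229 to 309 CPM in WT, and at 13292 to 14079 CPM in OE against 47.9 to 54.3 CPM in GFP. The 8 hepatocyte markers (Alb, Apoa1 and others) summed to 129710 to 162650 CPM in KO, 118650 to 126120 in WT, 13459 to 14159 in OE and 35038 to 36007 in GFP. The replicate spread was wider in the deletion experiment, with a biological coefficient of variation of 20.4% in KO and WT and 4.04% in OE and GFP. In KO against WT, 12 acute phase and inflammatory genes summed to 13728, 17267 and 3261 CPM in KO1, KO2 and KO3, against 3516, 4066 and 10181 CPM in WT1, WT2 and WT3. KO3 and WT3 thus lay apart from the other libraries of their groups. The 10 macrophage markers followed the same order, at 30.6, 35.6 and 11.2 CPM in KO and 2.79, 4.56 and 17.6 CPM in WT, and of these Marco was at 0 in WT2. The 8 stellate and fibroblast markers summed to 13.5 to 20.2 CPM in KO and 4.64 to 9.46 CPM in WT. The 6 bile duct markers summed to 49.3 to 74.7 CPM in KO and 25.4 to 27.2 CPM in WT. The 8 endothelial markers summed to 41.3, 39.2 and 18.2 CPM in KO and 15.8, 23.8 and 27.8 CPM in WT. The part of these sums in the members' levels was not tested. Of the stellate and bile duct markers, Reln was called higher in KO (13.8 ± 2.91 CPM against 4.37 ± 1.19 CPM in WT). Sox9 was also called higher (36.2 ± 15.7 CPM against 8.93 ± 2.002 CPM in WT), while Acta2 was at 0 in KO and WT. The Reln call was lost in both limma fits and without KO1, KO2, WT1 or WT2 (adjusted p up to 0.135), and the Sox9 call in limma on log2(TPM + 1) and without any 1 WT library (up to 0.145). Among 8 lymphocyte and neutrophil markers Cd3e, Ms4a1 and Nkg7 were at 0 in each of the 12 libraries.

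The order of the members within each group was compared in TPM. In KO, Rxra, the shared heterodimer partner, came first at 128 ± 12.8 TPM (SD, n = 3). Nr1h4, the bile acid receptor FXR, followed at 88.7 ± 8.56 TPM, Nr1i3, the xenobiotic receptor CAR, at 83.3 ± 33.2 TPM, and Nr1h3, the oxysterol receptor LXRα, at 59.3 ± 3.99 TPM. In KO the ranges of Nr1h4, Nr1i3, Nr1h3, Ppara and Nr0b2 each overlapped that of the next in order, and so did those of Thrb and Esr1. In WT the first was Nr1i3 at 191 ± 24.2 TPM, ahead of Rxra at 126 ± 14.9 TPM and Nr1h4 at 97.6 ± 11.04 TPM, with no overlap between these neighbours.

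The lower end of the order was shared by both groups. Ppara, the fatty acid receptor of fasting, was at 44.0 ± 16.3 TPM in KO and 58.9 ± 16.3 TPM in WT, and Nr0b2 (SHP), which lacks a DNA binding domain and represses other receptors, was at 36.0 ± 20.7 TPM in KO and 40.6 ± 17.1 TPM in WT. Thrb, the main thyroid hormone receptor of the liver, was at 15.8 ± 2.37 TPM in KO and 16.2 ± 1.47 TPM in WT. The last places belonged to Esr1, the estrogen receptor α, at 8.95 ± 5.35 TPM in KO and 5.92 ± 2.18 TPM in WT, and to Ppard, a fatty acid receptor of many tissues, at 5.18 ± 1.72 TPM in KO and 6.72 ± 3.58 TPM in WT. Esr1 and Ppard overlapped in both groups.

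In OE the order was led by Rxra at 40.6 ± 1.201 TPM and Ppara at 39.95 ± 2.79 TPM, which overlapped. Thrb at 26.3 ± 1.44 TPM and Nr1h3 at 26.03 ± 1.41 TPM came next and also overlapped, as did Ppard at 21.5 ± 0.889 TPM and Nr1h4 at 20.04 ± 2.11 TPM. In GFP the order ran from Rxra (46.95 ± 1.37 TPM) over Nr1h4 (42.1 ± 1.35 TPM), Nr1h3 (33.97 ± 2.80 TPM), Ppara (17.4 ± 1.93 TPM) and Ppard (16.8 ± 1.08 TPM) to Nr1i2 (7.91 ± 0.395 TPM). In GFP Ppara overlapped Ppard, and Nr1i2 overlapped Thrb at 7.41 ± 0.506 TPM. Thrb thus held place 3 or 4 in OE and place 6 or 7 in GFP, and Nr1h4 held place 5 or 6 in OE and place 2 in GFP. Nr0b2 and Nr1i3 were last in both, at 1.81 ± 0.286 and 0.733 ± 0.235 TPM in OE and at 0.503 ± 0.172 and 0.140 ± 0.05 TPM in GFP.

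**Figure D1:**
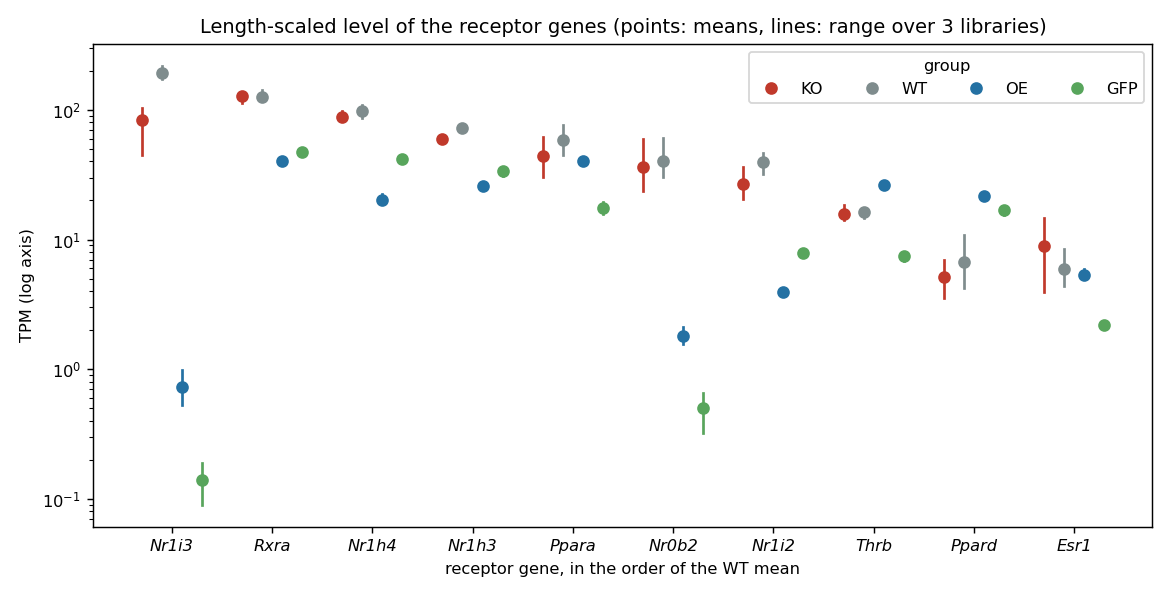
Level of each receptor gene in TPM (vertical, log axis) in the KO, WT, OE and GFP groups (colours), where points are means and lines the range of 3 libraries. Nr1i3 stood at 83.3 TPM in KO and 191 TPM in WT, and at 0.733 TPM in OE and 0.140 TPM in GFP.

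The deletion and the adenovirus experiment shared no library, so levels were set side by side without a test. Nr1i3 had 1381 to 4248 counts per library in KO and 6382 to 7920 in WT, and 9 to 14 counts in OE and 2 to 5 in GFP. Nr0b2 had 349 to 1019 counts in KO and 465 to 1014 in WT, and 18 to 23 counts in OE and 4 to 9 in GFP. The 10 members summed to 537, 400 and 550 TPM in KO and to 667, 652 and 644 TPM in WT, of which Nr1i3 gave 18.8%, 11.3% and 18.9% in KO and 32.7%, 27.9% and 26.7% in WT. In the adenovirus experiment the sums were 182, 182 and 195 TPM in OE and 173, 179 and 174 TPM in GFP.

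KO and WT hepatocytes were compared to ask which receptor genes depend on Cebpa. By edgeR's quasi-likelihood test with Benjamini-Hochberg adjustment, 0 of 10 members rose and 0 fell, where 0.692% of 11846 genes tested rose and 1.02% fell. Without adjustment, 2 members had a p under 0.05 (Nr1i3 and Nr1h3), both lower in KO, as did 13.9% of all genes in either direction and 7.1% with KO lower. DESeq2 called 1 of the members lower (Nr1i3), where it called 2.33% of all genes higher and 2.93% lower. On log2(TPM + 1) limma called 0 members, where 0.295% of 10845 genes were called higher and 0.738% lower. The median log2 fold change was -0.20 over the members and 0.01 over all genes tested. The groups did not overlap for Nr1i3 and Nr1h3, both lower in KO, and the other 8 members overlapped. Over all genes the groups did not overlap with KO lower for 10.4% and with KO higher for 9.66%.

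Nr1i3 (ENSMUSG00000005677.14, chromosome 1, 171213970 to 171220701, plus strand, mm10) was at 171, 71.0 and 174 CPM in KO, against 363, 314 and 273 CPM in WT. Every KO library lay under every WT library, and KO2 was the lowest. The level was 2.28-fold lower in KO (log2 fold change -1.19 ± 0.33, SE), which did not pass in edgeR (adjusted p = 0.166, unadjusted p = 0.0085). DESeq2 called it (adjusted p = 0.00689), as did a fit of all 12 libraries (adjusted p = 0.0214), and without KO2 the log2 fold change was -0.87 (adjusted p = 0.0794).

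The exons of Nr1i3 share 74.9% of their bases with Tomm40l, a gene of a mitochondrial import protein on the opposite strand. The library kit kept strand, but the sources do not state whether counting used it, so reads of the pair may not be separable. Tomm40l was at 10.5, 13.6 and 12.2 CPM in KO and at 5.50, 9.02 and 6.12 CPM in WT, with a log2 fold change of 0.82 ± 0.21 (adjusted p = 0.138). These levels were at most 13.6 CPM, against at least 71.0 CPM for Nr1i3 in the same libraries.

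Nr1h3 (chromosome 2, 91184061 to 91202834, minus strand) was at 75.4, 71.7 and 64.0 CPM in KO, against 81.3, 85.0 and 85.1 CPM in WT. The groups did not overlap, with KO lower, and the log2 fold change of -0.25 ± 0.10 did not pass (adjusted p = 0.306). Only the fit of all 12 libraries called it (adjusted p = 0.0355). Nr1i2 (chromosome 16, 38248323 to 38294824, minus strand), which encodes the drug receptor PXR, was at 65.1, 37.7 and 42.0 CPM in KO and at 68.9, 57.7 and 78.7 CPM in WT. KO1 lay within the WT range, and the log2 fold change was -0.50 ± 0.22 (adjusted p = 0.377).

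Nr1h4 (chromosome 10, 89454234 to 89533585, minus strand) was at 133, 115 and 113 CPM in KO and at 140.2, 118 and 127 CPM in WT, with a log2 fold change of -0.09 ± 0.11. Rxra (chromosome 2, 27676440 to 27762957, plus strand) was at 474, 412 and 453 CPM in KO and at 383, 411 and 466 CPM in WT (log2 fold change 0.09 ± 0.12). Thrb (chromosome 14, 17660261 to 18038090, plus strand) was at 58.05, 43.7 and 47.6 CPM in KO and at 46.3, 52.4 and 47.1 CPM in WT (0.04 ± 0.13). The groups overlapped for these 3 genes, and the sign for Thrb turned with library totals as the scale and in limma.

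The other 4 members varied between the libraries of each group. Esr1 (chromosome 10, 4611593 to 5005614, plus strand) was at 61.8, 36.2 and 16.9 CPM in KO1, KO2 and KO3 and at 33.8, 18.9 and 19.3 CPM in WT1, WT2 and WT3, with a log2 fold change of 0.67 ± 0.46 (adjusted p = 0.545). Without KO3 this was 1.03 and without KO1 0.13, and neither passed (adjusted p = 0.143 and 0.913). KO3, where Esr1 was lowest, had the lowest acute phase and macrophage sums of the KO libraries. WT1, where Esr1 was highest in WT, had the lowest of these sums in WT, and their part in the Esr1 levels was not tested.

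Ppara (chromosome 15, 85734983 to 85802819, plus strand) was at 69.0, 51.8 and 112 CPM in KO and at 71.8, 131 and 82.4 CPM in WT, a log2 fold change of -0.29 ± 0.33. Nr0b2 (chromosome 4, 133553376 to 133556536, plus strand) was at 17.0, 17.9 and 41.8 CPM in KO and at 21.3, 43.6 and 20.6 CPM in WT (-0.15 ± 0.43). Ppara and Nr0b2 were both highest in KO3 within KO and in WT2 within WT. Ppard (chromosome 17, 28232700 to 28301474, plus strand) was at 10.2, 8.33 and 15.3 CPM in KO and at 22.2, 9.37 and 10.3 CPM in WT (-0.30 ± 0.37). Each of these 3 signs turned when 1 library was left out, so no direction is given for them.

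**Figure D2:**
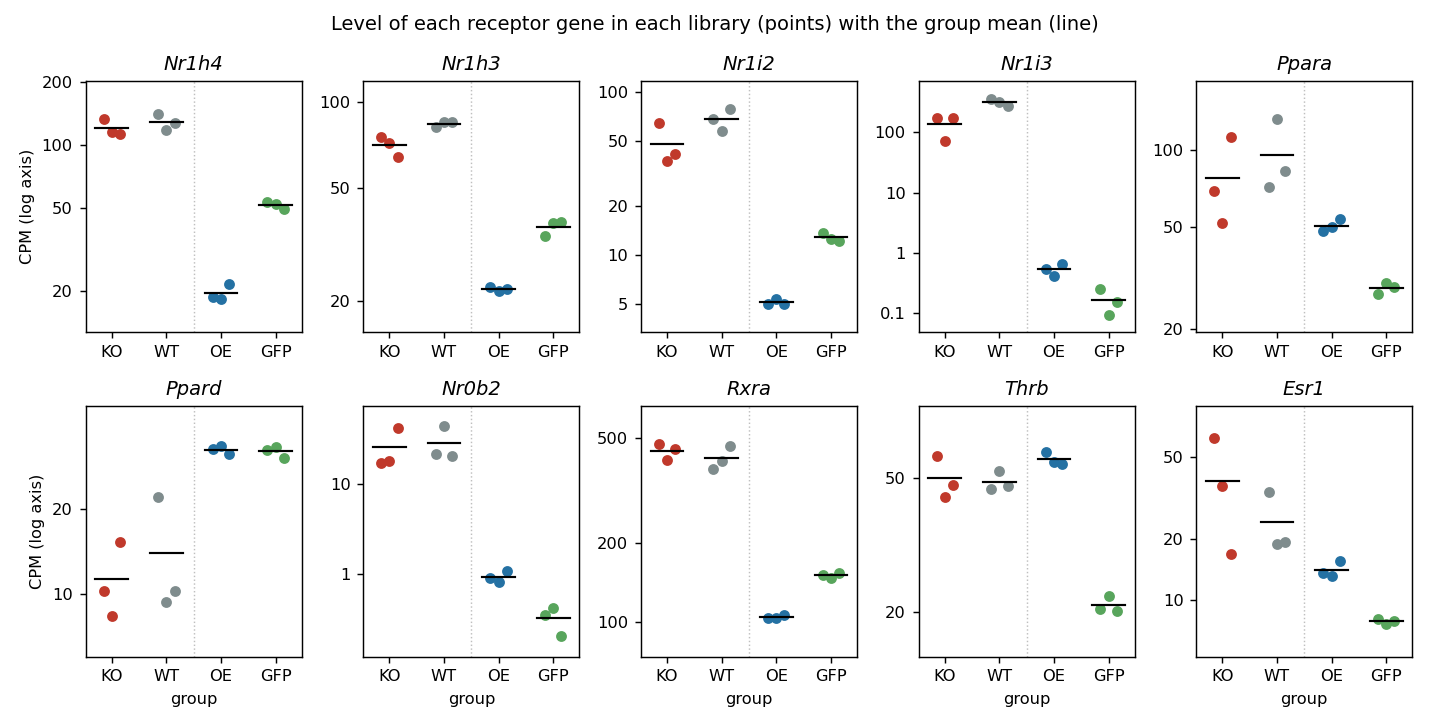
Level of each receptor gene in CPM (vertical, log axis, with its own range in each panel) in the KO, WT, OE and GFP libraries (horizontal), where points are libraries and lines are means (n = 3). The KO and WT points overlap for 8 of 10 genes, and the OE and GFP points are apart for every gene but Ppard, where over all genes tested OE lay apart from GFP above it for 44.1% and below it for 42.9%.

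OE and GFP hepatocytes were compared to ask which receptor genes respond to more Cebpa. Of the members, 9 passed the filter on low counts and could be tested, and Nr1i3 did not. edgeR called 4 members higher and 4 lower in OE, and Ppard was not called. Of the 4 higher, Nr0b2 passed the filter only through its OE counts. Over all 14889 genes tested, 43.9% were called higher and 42.7% lower, so a call by itself was the common outcome. The groups did not overlap for the 8 called members, nor for Nr1i3. Over all genes tested OE lay above GFP without overlap for 44.1% and below it for 42.9%. The median log2 fold change was 0.02 over the 9 members and 0.01 over all genes tested, with members at -1.40 to 1.49.

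Of the bile acid, drug and oxysterol receptors, the 3 tested genes fell, where 42.7% of all genes tested fell. Nr1i3, also a drug receptor, failed the filter, and its few counts lay higher in OE, as given below. Nr1h4 was at 18.8, 18.4 and 21.8 CPM in OE, against 53.6, 51.9 and 49.6 CPM in GFP. It was 2.64-fold lower in OE, a log2 fold change of -1.40 ± 0.06 (adjusted p = 3.0e-11), with no overlap. Nr1i2 was at 4.99, 5.35 and 4.98 CPM in OE, against 13.6, 12.6 and 12.2 CPM in GFP. The OE libraries were all lower, by 2.504-fold (log2 fold change -1.32 ± 0.09, adjusted p = 6.02e-09). Nr1h3 was at 22.4, 21.6 and 21.99 CPM in OE, against 33.8, 37.4 and 37.7 CPM in GFP. It was 1.65-fold lower in OE without overlap (log2 fold change -0.72 ± 0.06, adjusted p = 2.40e-08).

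Rxra, with which these receptors pair, was at 104, 104 and 106 CPM in OE, against 151, 147 and 153 CPM in GFP. It was 1.44-fold lower in OE (log2 fold change -0.53 ± 0.03, adjusted p = 2.31e-10), and the groups did not overlap. The 4 decreases held in every alternative run. The scale mattered to their size, since limma on log2(TPM + 1) gave -0.21 for Rxra and -0.37 for Nr1h3, while the median over all genes was 0.27 there. With the length trend removed Rxra was at -0.85. Of all calls 50.7% were higher in edgeR and 63.4% in limma on log2(TPM + 1).

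Thrb, Ppara and Esr1 rose. Thrb was at 59.7, 55.8 and 55.1 CPM in OE, against 20.4, 22.2 and 20.1 CPM in GFP. It was 2.72-fold higher in OE, a log2 fold change of 1.44 ± 0.06 (adjusted p = 4.25e-12), and the groups lay far apart. Ppara was at 48.2, 49.9 and 53.7 CPM in OE, against 27.4, 30.3 and 29.3 CPM in GFP. All OE libraries were higher, by 1.74-fold (log2 fold change 0.80 ± 0.06, adjusted p = 4.51e-09). Esr1 was at 13.7, 13.2 and 15.5 CPM in OE, against 8.10, 7.66 and 7.96 CPM in GFP. It was 1.78-fold higher in OE without overlap (log2 fold change 0.83 ± 0.09, adjusted p = 5.63e-07), and in the fit of all 12 libraries the call was lost (adjusted p = 0.0682). With the length trend removed it was smaller, at 0.46, and still called (adjusted p = 2.46e-04).

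Nr0b2 was at 0.908, 0.809 and 1.08 CPM in OE, against 0.348, 0.423 and 0.205 CPM in GFP. It was 2.80-fold higher in OE with no overlap (log2 fold change 1.49 ± 0.35, adjusted p = 0.00126), from 22, 18 and 23 counts in OE and 7, 9 and 4 counts in GFP. The GFP counts were each under the minimum count of 10, so Nr0b2 could be tested only through its OE counts. Its call is given as a description only. The stricter filter removed it and the fit of all 12 libraries lost the call (adjusted p = 0.126).

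Nr1i3 had 13, 9 and 14 counts in OE, against 5, 2 and 3 counts in GFP. The OE libraries were all higher, at 0.536, 0.404 and 0.658 CPM against 0.248, 0.0940 and 0.154 CPM in GFP. With no filter the log2 fold change was 1.67 ± 0.58 (adjusted p = 0.00733), and in the fit of all 12 libraries it was 1.65 (adjusted p = 0.0855). Tomm40l on the opposite strand was at 12.9, 11.9 and 11.4 CPM in OE and at 25.9, 22.8 and 23.5 CPM in GFP. Its log2 fold change was -0.99 ± 0.07 (adjusted p = 9.89e-09). Tomm40l was thus at 11.4 CPM or more in these libraries, where Nr1i3 was at most at 0.658 CPM. Whether the Nr1i3 counts include reads of Tomm40l was not tested.

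Ppard was at 32.7, 33.5 and 31.5 CPM in OE, against 32.4, 33.4 and 30.6 CPM in GFP, with overlap. Its log2 fold change was 0.02 ± 0.05 (adjusted p = 0.724). Library totals as the scale (log2 fold change 0.16, adjusted p = 0.0132) and limma on log2(TPM + 1) (0.34, adjusted p = 0.00182) called it higher. Against the median of all genes in those fits, 0.15 and 0.27, it stood close to the middle of the distribution.

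**Figure D3:**
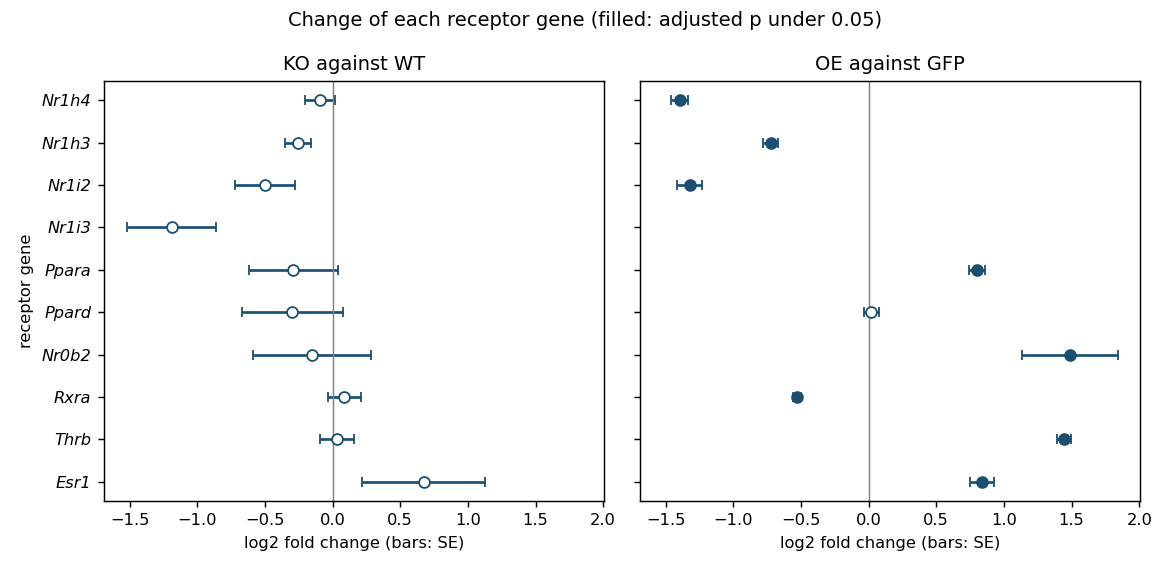
Log2 fold change (horizontal, bars are the SE) of each receptor gene (vertical) in KO against WT on the left and OE against GFP on the right, with filled points where the adjusted p was under 0.05. The left panel has 0 filled points, and the right panel has 4 below 0 and 4 above 0, with Nr1i3 not tested there.

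The OE and GFP libraries also differed in hepatocyte and other markers. Of the 8 hepatocyte markers 6 were called lower and 2 higher in OE, Alb at 7609 ± 203 CPM in OE and 17767 ± 444 CPM in GFP among the first. The 10 macrophage markers summed to 105 to 119 CPM in OE and 125 to 138 CPM in GFP, most of it Cd68, and only Cd68 and Csf1r were tested. Cd68 was called lower (110 ± 6.75 CPM in OE against 131 ± 6.44 CPM in GFP), with a sign that turned in limma and with the length trend removed. Csf1r was called higher (1.19 ± 0.122 CPM in OE against 0.297 ± 0.107 CPM in GFP). Csf1r passed the filter only through its OE counts, so its call is given as a description only. Of the others, Adgre1 and Marco were at 0 in each GFP library and at no more than 0.248 CPM in OE. S100a8 and S100a9 were at 201 to 239 and 324 to 381 CPM in OE and at 0 in GFP, while Cd3e, Ms4a1 and Nkg7 were at 0 in both groups. The 8 stellate and fibroblast markers summed to 41.0 to 41.6 CPM in OE and 12.1 to 14.1 CPM in GFP, and of 5 tested 3 were called higher and 1 lower. The 8 endothelial markers summed to 27.8 to 29.1 CPM in OE and 39.5 to 43.6 CPM in GFP, with 4 of 7 tested called lower. The 6 bile duct markers summed to 48.7 to 55.1 CPM in OE and 35.6 to 38.8 CPM in GFP, with 3 called higher and 2 lower. The part of these markers in the members' levels was not tested. In bulk RNA, fewer hepatocytes and less RNA per cell cannot be told apart.

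The 2 effects on each member were then set against each other by testing OE against GFP less KO against WT in 1 fit of all 12 libraries. Of the 10 members 3 had a higher and 4 a lower effect in OE against GFP, where 25.9% of 15326 genes were called higher and 28.1% lower. The 3 were Thrb (difference in log2 1.43 ± 0.15, adjusted p = 7.69e-06), Ppara (1.11 ± 0.38, adjusted p = 0.0269) and Nr1i3 (2.85 ± 0.85, adjusted p = 0.0135). Nr1i3 entered this fit only through its counts in KO and WT, since it failed the filter in OE against GFP. Its difference is given as a description only. The 4 were Nr1h4 (-1.28 ± 0.13, adjusted p = 6.79e-06), Rxra (-0.59 ± 0.12, adjusted p = 0.00137), Nr1h3 (-0.45 ± 0.10, adjusted p = 0.00233) and Nr1i2 (-0.80 ± 0.27, adjusted p = 0.0251). The fit gives each gene 1 spread for both experiments, and its call for Ppara was lost without KO1, WT2, OE3, GFP1 or GFP3 (adjusted p up to 0.0735), and that for Nr1i2 without WT2 (adjusted p = 0.0553) or with library totals (0.0567).

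edgeR called 0 of the 10 members in KO against WT, so their signs in that comparison are given as a description only. For Nr1h4, Nr1h3 and Nr1i2 both log2 fold changes were below 0. They were -0.09, -0.25 and -0.50 in KO against WT and -1.40, -0.72 and -1.32 in OE against GFP. Nr1i3 differed in sign, at -1.19 in KO against WT and above 0 in OE against GFP, where its counts were at most 14. Esr1 was above 0 in both, at 0.67 and 0.83, and the difference of 0.19 ± 0.53 did not pass (adjusted p = 0.825). Ppard (0.33 ± 0.41) and Nr0b2 (1.65 ± 0.91) did not pass either (adjusted p = 0.536 and 0.148).

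Genes of the receptors' pathways were described by lists. For comparison, edgeR called 43.9% of all genes tested higher and 42.7% lower in OE against GFP. In KO against WT these shares were 0.692% and 1.02%. Among 39 other nuclear receptors 24 were tested in KO against WT, and 1 rose, Rarb, a retinoic acid receptor, at 2.45, 3.24 and 2.34 CPM in KO against 1.01, 0.816 and 0.984 CPM in WT (adjusted p = 0.0365). Without any 1 library but KO3 that call was lost (adjusted p up to 0.165). In OE against GFP 17 of 31 tested rose and 11 fell. Hnf4a, a central regulator of hepatocyte genes, fell 4.86-fold to 92.4 ± 4.47 CPM in OE, against 449 ± 1.65 CPM in GFP, and was at 786 ± 108 CPM in KO and 691 ± 109.5 CPM in WT without passing (adjusted p = 0.633). Esrra, an estrogen-related receptor of mitochondrial genes, fell 3.40-fold in OE and Nr2f6, an orphan receptor, fell 2.998-fold.

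Coregulators are the proteins that receptors recruit to activate or silence genes. In OE against GFP 13 of 16 rose and 3 fell, where 43.9% of all genes tested rose and 42.7% fell. The median log2 fold change was 0.81 where the median of all genes was 0.01. This list median was not computed with the gene length trend removed. Among the members, that setting moved Esr1 from 0.83 to 0.46 and Rxra from -0.53 to -0.85. The part of gene length in the coregulator changes was not tested. Nrip1, a corepressor, rose 17.1-fold to 837 ± 12.6 CPM in OE, against 48.9 ± 1.52 CPM in GFP. Tbl1xr1, a corepressor subunit, rose 2.51-fold, and its log2 fold change ran from 1.08 to 2.24 over the alternative runs. Ncoa6, a coactivator, rose to 327 ± 17.6 CPM in OE, against 81.8 ± 6.38 CPM in GFP. In KO against WT edgeR called 0 of 16, and DESeq2 and limma on log2(TPM + 1) also called 0, with 1 gene at an unadjusted p under 0.05.

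Of 8 tested bile acid genes, in which FXR acts, 2 fell in KO. Slco1b2, a sinusoidal organic anion transporter, was at 357, 266 and 366 CPM in KO against 855, 918 and 773 CPM in WT, a log2 fold change of -1.36 ± 0.16 (adjusted p = 0.0114). Slc10a1 (NTCP), the bile acid uptake carrier, was at 228, 206 and 248 CPM in KO against 395, 396 and 379.7 CPM in WT (-0.78 ± 0.11, adjusted p = 0.0221). The Slco1b2 call was lost without WT1 or WT2 (adjusted p up to 0.0670), and that of Slc10a1 without any 1 library but KO3 (up to 0.116). In OE 4 of 8 rose and 4 fell. Slco1b2 rose 7.15-fold in OE, to 21.98 ± 2.30 CPM against 3.08 ± 0.271 CPM in GFP, while Abcb4, the canalicular phospholipid exporter, fell 5.298-fold and Baat, which conjugates bile acids, 9.985-fold.

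Of the 9 LXR targets 1 fell in KO, Abcg8, a subunit of the sterol exporter, at 14.4, 12.5 and 17.5 CPM in KO against 31.2, 26.9 and 43.9 CPM in WT (adjusted p = 0.0438). Omitting any single library other than KO3, the stricter filter or limma ended the call (adjusted p up to 0.144). In OE 4 rose and 3 fell. Abca1, a cholesterol exporter, rose 3.81-fold, and Scd1, a fatty acid desaturase, and Lpcat3, a phospholipid acyltransferase, fell 2.27-fold and 1.52-fold.

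Of the 12 PXR and CAR targets 1 fell in KO. Cyp3a11, a drug-oxidizing enzyme and the classical PXR target, was at 356, 223 and 353 CPM in KO against 1293, 870.2 and 816 CPM in WT. Its log2 fold change was -1.68 ± 0.25 (adjusted p = 0.0280). DESeq2 called 5 of the 12 lower, where it called 2.93% of all genes lower. The edgeR call held without KO3 and ended without any other single library (adjusted p up to 0.0955). In OE 8 fell and 4 rose, where 42.7% of all genes tested fell and 43.9% rose. The median log2 fold change was -0.96, against 0.005 over all genes and -1.04 over the 8 hepatocyte markers. Cyp3a11 fell 8.74-fold, to 72.8 ± 6.22 CPM in OE against 636 ± 32.4 CPM in GFP, Cyp2b10, the classical CAR target, 8.22-fold and Cyp2a5 2.97-fold. Cyp2b10 was thus at 74.9 ± 5.51 CPM in OE and at 616 ± 23.02 CPM in GFP, libraries in which Nr1i3 had at most 14 counts.

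Of 15 PPAR targets 12 fell and 3 rose in OE, where 42.7% of all genes tested fell and 43.9% rose. The median log2 fold change was -1.51, against 0.005 over all genes and -1.04 over the 8 hepatocyte markers. Ppara itself rose, and a link between these changes was not tested. Angptl4, a lipoprotein lipase inhibitor, fell 7.19-fold to 23.8 ± 2.28 CPM in OE, against 171 ± 2.32 CPM in GFP. Plin2, a lipid droplet protein, fell 3.87-fold. In KO against WT edgeR called 0 of 15, with 4 at an unadjusted p under 0.05. DESeq2 called 1 higher and 3 lower, where it called 2.33% of all genes higher and 2.93% lower. On log2(TPM + 1) limma called 0.

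Of 7 thyroid hormone targets 5 fell and 2 rose in OE, where 42.7% of all genes tested fell and 43.9% rose. The median log2 fold change was -1.63, against 0.005 over all genes and -1.04 over the 8 hepatocyte markers. Thrb rose, and a link between these changes was not tested. Thrsp, a lipogenic protein induced by thyroid hormone, fell 5.47-fold to 8.65 ± 0.407 CPM in OE, against 47.3 ± 1.26 CPM in GFP. Bcl3 fell 3.10-fold and Gpd2, the mitochondrial glycerol phosphate dehydrogenase, rose 4.30-fold. In KO against WT edgeR called 0 of 6 tested, with 1 at an unadjusted p under 0.05. DESeq2 called 1 higher, where it called 2.33% of all genes higher, and limma on log2(TPM + 1) called 0.

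**Figure D4:**
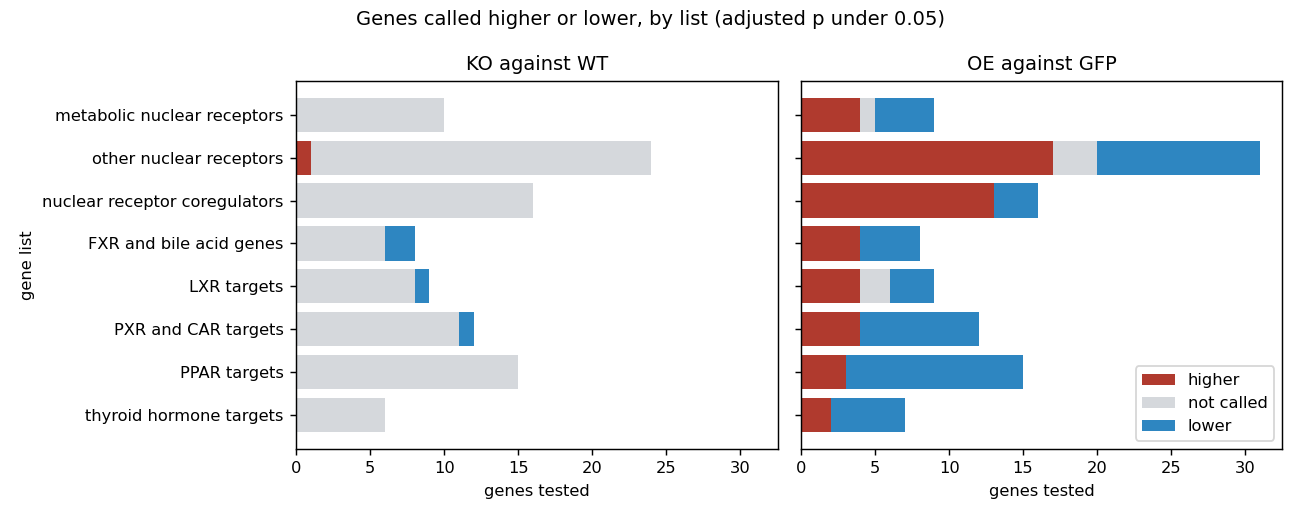
Number of genes tested (horizontal) that were called higher, not called or called lower in each list (vertical), in KO against WT on the left and OE against GFP on the right. In KO the called genes are 1 other nuclear receptor, higher, and 2 bile acid genes, 1 LXR target and 1 PXR and CAR target, lower. Over all genes tested 0.692% are higher and 1.02% lower there. In OE 12 of 15 PPAR targets are lower, where 42.7% of all genes tested are lower.

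The genes most like each member were found by the root mean square difference in log2 CPM over the 12 libraries, each gene centred on its mean within each experiment. It is a description of likeness in both experiments at once. Rxra was matched most closely by Gak (0.051) and Ddb1 (0.059), where the median gene stood 0.345 away. Thrb was matched by Naaa (0.070) and Tbl1xr1 (0.076), Nr1h4 by Tmpo and Aldh7a1 (0.074 each), Nr1h3 by Reep3 (0.064) and Sidt2 (0.067), and Nr1i2 by Gfra1 (0.125). Ppara lay closest to Lmbr1l (0.115) and Cdc14b (0.156), Ppard to Adat2 (0.151) and Iffo2 (0.172), and Esr1 to Sqle (0.152) and Fmo4 (0.277).

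The least matched members were Nr1i3, with Zyg11a (0.298) and Ablim3 (0.314), and Nr0b2, with Wipi1 (0.295) and Ube2h (0.30). Among the members themselves Nr1h3 and Rxra were the closest pair (0.166), followed by Nr1h4 and Nr1i2 (0.225). For no member was another member the nearest gene.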

How the data were processed

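RNA of primary mouse hepatocytes was purified on columns, and stranded mRNA libraries were prepared. Per the labels, the authors named Trimmomatic 0.36, STAR 2.5.1, Picard 1.84, RSEM 1.2.22 and DESeq2, and build mm10. The deposited tables give RSEM expected counts per gene, that is estimated reads with no depth scaling. A second deposited column holds TPM, scaled for gene length. All 55450 identifiers matched GENCODE M21, the source of coordinates and exon overlaps, and promoters came from RefSeq (GRCm38.p6).

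Expected counts were rounded, filtered by filterByExpr (minimum count 10, minimum total 15), scaled by TMM and tested with edgeR 4.0.16 (quasi-likelihood F test, R 4.3.3), 2-sided, and p values were adjusted over the genes tested by the Benjamini-Hochberg method. KO and WT, and OE and GFP, were fitted on their own 6 libraries, and genes were called at an adjusted p under 0.05. The difference of both effects was fitted on all 12. CPM is TMM-scaled and errors are the SD for levels and the SE for log2 fold changes. Counts of reads are not independent molecules.

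The alternatives were DESeq2 1.42.0, scaling by library totals or DESeq2-type factors, and no filter or a stricter one (a mean of 5 CPM, with 3 libraries at 1 CPM or more). Further ones were limma 3.58.1 on log2(TPM + 1) or log2(TPM + 0.1), where the mean was 1 TPM or more, removal of a gene length trend (lowess, span 0.3), 1 fit over the 12 libraries, the replicate number as a block, and omission of single libraries. The code was tested on simulated data. No 2 libraries of the same group agreed within sampling noise, and the OE libraries came closest to it. Between pairs of libraries, the chi-square of the counts per degree of freedom was 2.58 to 3.12 in OE and 5.68 to 15.1 in GFP. It was 31.6 to 50.8 in WT and 59.8 to 118 in KO.

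The members and gene lists were chosen with earlier results of these data known. Named genes were the members, up to 3 called genes per list by p, and the 2 genes most like each member with a mean of at least 5 CPM. Some genes that this rule named are not reported here. Tomm40l was added after its overlap was seen. Values for lists were given as counts and medians. Protein sequences were not used here.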

Additional observations from a re-analysis of the deposited data

How the results depend on the processing

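In KO against WT, edgeR called 203 genes in all, against 623 in DESeq2, 324 with no filter, 91 under the stricter filter, 112 (log2(TPM + 1)) and 103 (log2(TPM + 0.1)) in limma, 87 with a replicate block, 1205 in the fit of all 12 libraries and 42 to 396 with 1 library left out. The highest of these was without KO3 and the lowest without WT1. Of the members 0 were lower in the main comparison, 1 in DESeq2 (Nr1i3) and 2 in the fit of all 12 libraries (Nr1i3 and Nr1h3). In OE against GFP 4 members were higher, and 2 in the fit of all 12 libraries (Ppara and Thrb). The cause of these moves was not tested. Of the genes called in OE against GFP 50.7% were higher, against 63.4% and 63.5% in limma on the 2 TPM scales.

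Signs turned for changes that had not passed, apart from Cd68. In KO against WT, Thrb was at -0.016 with library totals and at -0.043 and -0.046 in limma, and with 1 library left out the log2 fold change was -0.10 to 0.12 for Thrb, -0.71 to 0.29 for Nr0b2, -0.66 to 0.0081 for Ppara and -0.59 to 0.20 for Ppard. In OE against GFP, Ppard was at -0.090 with the length trend removed and at -0.021 to 0.060 with 1 library left out, and Cd68, called lower, was at 0.070 and 0.071 in limma and at 0.063 with the length trend removed. The difference of the effects was -0.17 to 0.73 for Esr1 and -0.17 to 0.63 for Ppard with 1 library left out.

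Libraries of the same number did not deviate together (correlations -0.459 to 0.036 in KO and WT and -0.078 to 0.041 in OE and GFP), so the block is given only here. With the replicate block 0 members passed in KO against WT, as without it, and 4 rose and 4 fell in OE against GFP. Among the named list genes called in KO against WT, the block ended the calls of Slco1b2, Slc10a1, Reln and Rarb. Those of Abcg8, Cyp3a11 and Sox9 held. In the difference of the effects the block left 2 members higher in place of 3, since Ppara no longer passed (adjusted p = 0.0644). Nr0b2 and Nr1i3 rest on few counts in OE and GFP.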
